A study of Drosophila melanogaster with 16 samples.

Results

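MSL2-metafemales are female Drosophila melanogaster larvae that carry 3 X chromosomes with a normal pair of each autosome and also over-express MSL2, the protein that limits assembly of the male-specific lethal (MSL) complex. Their RNA was set against that of diploid females, so each ratio below describes the combined state of an additional X and of MSL2. All libraries were of pooled whole larvae of the third instar. MSL2-metafemales came from mothers with the attached X chromosome C(1)DX, marked with y, w and f, and fathers homozygous for MSL2 transgenes on chromosome 2R. Metafemales without the transgene, whose means are given beside them, came from the same mothers and Canton S fathers, and triplo-X larvae of both crosses were picked by their y+ phenotype. Diploid females were of the Canton S stock, so strain background differed together with X dose and MSL2. The labels list 2 libraries each of MSL2-metafemales and metafemales, and the deposited table holds 1 mean per group, from which no error or test can be had. Of 13867 genes in the table, 11669 had both means and entered the comparison, summed from 19151 of 23991 transcripts.

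The MSL complex binds the single X of males and acetylates histone H4, and X-linked genes are then expressed at about the level that both X chromosomes of females give. Females lack the complex because Sex-lethal protein blocks translation of msl-2 messenger RNA. A triplo-X female has extra X-linked genes and unchanged autosomes, and such larvae develop slowly and rarely reach adulthood. In flies, the gain of a large chromosome segment is known to alter the expression of genes on other chromosomes as well as its own.

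Values are read counts scaled to the mapped reads of a library (CPM) that the authors adjusted for sequencing batch and averaged. A log2 ratio is that of the MSL2-metafemale mean over the diploid female mean, and changes count as called past 2-fold, which is 1 on this scale, among genes whose means in the 2 groups average at least 1 CPM. MSL2-metafemales were sequenced with paired ends in a later batch and the diploid females with single ends in an earlier one. Batch and genotype cannot be told apart in this comparison beyond the adjustment the authors made. By the paper's methods, metafemales were sequenced in both batches. Whether the metafemale mean holds libraries of 1 batch or of both is not stated. The table deposited with the autosomal trisomies holds a mean of other diploid females, adjusted separately, and the counts past 2-fold of the gene groups are also given against both diploid means. Those larvae are called diploid females of the autosomal table. Their mean was summed over the transcripts that had one there, while the MSL2-metafemale sum kept all transcripts of the comparison. Where a transcript had no mean there, the 2 sums covered different transcripts, and how often this happened was not counted. In whole larvae, fewer cells of a type and less RNA per cell cannot be told apart. The 3 means summed to 1062349 CPM in MSL2-metafemales, 882378 in metafemales and 930903 in diploid females.

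X-linked and autosomal genes were displaced from each other. The 1966 X-linked genes had a median log2 ratio of 0.10, a fold of 1.07, with the middle of the distribution between -0.47 and 0.81. The 9703 autosomal genes had a median of -0.39, a fold of 0.761, with the middle between -1.05 and 0.35. The difference between the medians was 0.49, a value that no rescaling of a whole column can move. In metafemales without the transgene, the medians over the same diploid females were 0.18 for the X and -0.29 for autosomes. With the diploid females of the autosomal table, the medians of MSL2-metafemales were 0.59 and -0.27, a difference of 0.86. The direction of the displacement was therefore the same with either diploid mean, but the X median alone depended on which was used. When the columns were scaled to equal totals, it was -0.09.

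The autosomal shift was spread evenly. Arms 2L, 2R, 3L and 3R had medians of -0.41, -0.38, -0.40 and -0.39, and the small chromosome 4, whose genes lie among heterochromatin, had -0.35 over 89 genes. The position of the MSL2 transgenes on 2R did not set that arm apart in these medians, but a median over 2353 genes cannot show changes limited to genes near the insertions. The medians were higher at higher levels on both kinds of chromosome. X-linked genes at 1 to 10 CPM had a median of -0.16, those at 10 to 100 CPM 0.15 and those of at least 100 CPM 0.26. Autosomal genes of these 3 classes had medians of -0.50, -0.41 and -0.07.

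**Figure D1:**
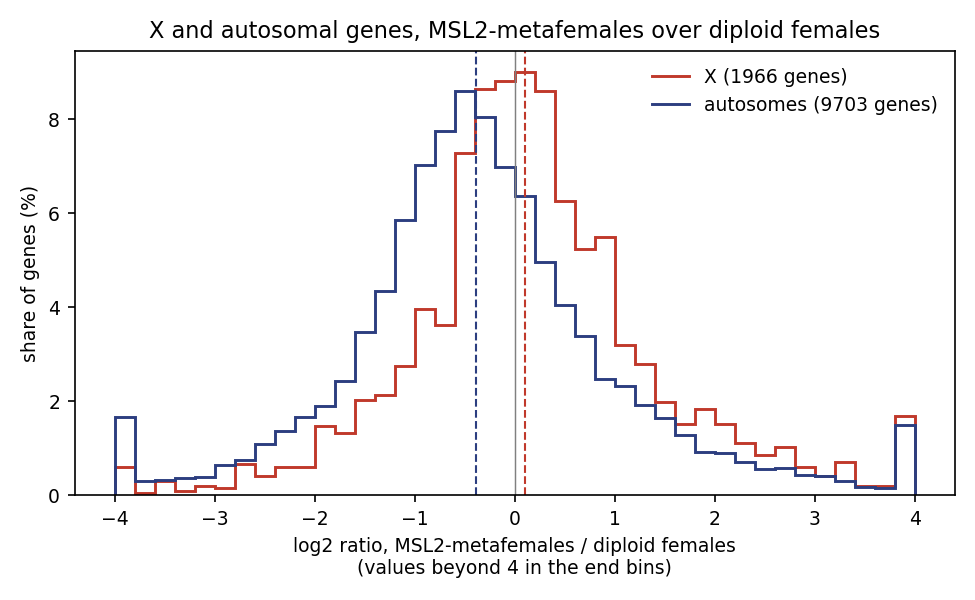
Distribution of the log2 ratio of MSL2-metafemales over diploid females for X-linked and autosomal genes, as the share of genes in each bin. Dashed lines are the medians, 0.10 for the X and -0.39 for autosomes, and the X distribution is shifted to the right of the autosomal one with wide overlap.

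Among 9548 counted genes, 1349 were at least 2-fold higher in MSL2-metafemales, which is 14.1%, and 2183 were at least 2-fold lower, which is 22.9%. In either direction this came to 37% of counted genes. Of these calls 38.2% were higher. Scaling the columns to equal totals moved every log2 ratio by -0.19 and made this share 29%, and a trimmed mean of the log2 ratios moved them by 0.30 and made it 55%. On the X, 304 of 1603 genes were higher and 185 lower, 19% and 11.5%, whereas on autosomes 1045 of 7945 were higher and 1998 lower, 13.2% and 25.1%. Metafemales without the transgene had 1035 higher and 1670 lower genes of 9535 over the same diploid females. Of 9373 genes that also had a mean in the diploid females of the autosomal table, 799, or 8.52%, were at least 2-fold above both diploid means and 1197, or 12.8%, at least 2-fold below both. Thus 61.5% of the higher and 56.5% of the lower genes with both diploid means kept their call, and 137 and 336 of them turned sign. For the counts of gene groups below, the shares of all genes are 14.1% higher and 22.9% lower, or 8.52% and 12.8% against both. The 2 diploid means themselves differed, with 1896 genes at least 2-fold higher and 855 at least 2-fold lower in the diploid females of the same table as the MSL2-metafemales.

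The transgene was visible in its own messenger RNA. msl-2, on 2L at 3462218 to 3466112 in the Release 6 assembly, had 95.3 CPM in MSL2-metafemales and 8.31 CPM in metafemales, against 12.3 CPM in diploid females and 8.99 CPM in those of the autosomal table. Its log2 ratio was 2.96, a fold of 7.77, and only MSL2-metafemales were high. Reads of the transgene and of the resident gene were not separated.

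The partners of MSL2 did not follow it. The scaffold gene msl-1 had 24.8 CPM in MSL2-metafemales, 24.3 CPM in metafemales and 28.9 CPM in diploid females. mof, which encodes the H4 acetyltransferase, had 15.1 CPM in MSL2-metafemales and 15.9 CPM in metafemales, against 11.7 CPM in diploid females. The chromodomain gene msl-3 fell, with 4.05 CPM in MSL2-metafemales and 6.6 CPM in metafemales, against 9 CPM in diploid females, a log2 ratio of -1.15.

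The RNA helicase gene mle, on 2R, fell furthest, with 1.74 CPM in MSL2-metafemales and 4.16 CPM in metafemales, against 75.4 CPM in diploid females. Its ratio was -5.43 here and -2.37 over the diploid females of the autosomal table, which had 8.99 CPM. That value is of 1 of its 2 transcripts. The other, at 0.632 CPM in MSL2-metafemales, had no mean there but entered the ratio. Most of this came from 1 of 2 transcripts with both means, at 1.11 CPM in MSL2-metafemales, 1.27 CPM in metafemales and 71.6 CPM in diploid females. The diploid males of the same table had 87.9 CPM of it. The high values thus lay in both diploid groups of that table and not in the diploid females of the other.

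The noncoding roX RNAs, which the complex needs to spread along the X, stayed low. roX1 had 7.15 CPM in MSL2-metafemales and 11.6 CPM in metafemales, against 8.69 CPM in diploid females, while diploid males of the same table had 242 CPM. roX2 had 0.403 CPM in MSL2-metafemales and 0.102 CPM in metafemales, against 0.368 CPM in diploid females, over its transcript with a mean in all of them. roX1 did not approach the male level in larvae with raised msl-2 messenger RNA.

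Among 11 counted cofactors and subunits of the related NSL complex, 1 rose and 2 fell, and 1 and 1 kept these calls against both diploid means. Over all counted genes 14.1% rose and 22.9% fell, and 8.52% and 12.8% did so against both. JIL-1, a histone H3 kinase enriched on the male X, had 73.2 CPM in MSL2-metafemales and 43.1 CPM in metafemales, against 14.5 CPM in diploid females, a log2 ratio of 2.33. It was 1.05 over the diploid females of the autosomal table. Clamp, which encodes a zinc finger protein that marks MSL binding sites, had 31.5 CPM in MSL2-metafemales and 37.8 CPM in metafemales, against 69.3 CPM in diploid females. Among 14 acetyltransferases and deacetylases, 3 rose and 4 fell, 2 and 3 of them against both diploid means. nej, the fly CBP acetyltransferase gene, was the lowest at 1.15 CPM in MSL2-metafemales and 17.1 CPM in metafemales, against 25.3 CPM in diploid females, with a ratio of -4.46. A further 3.88 CPM of nej in MSL2-metafemales lay in transcripts without a diploid female mean, so the fall of the gene was smaller. HDAC4, a class II deacetylase gene on the X, was the highest at 17.5 CPM in MSL2-metafemales and 3.4 CPM in metafemales, against 2.93 CPM in diploid females, though within 2-fold once transcripts with a mean in 1 group only were added.

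Of 14 heterochromatin genes, 1 rose and 5 fell, with a median of -0.69, and 1 and 3 kept these calls against both diploid means. Over the diploid females of the autosomal table the median was -0.10, the same as that of all counted genes. Su(var)205, which encodes heterochromatin protein 1, had 78.4 CPM in MSL2-metafemales and 102 CPM in metafemales, against 252 CPM in diploid females. Pof, whose product coats chromosome 4, had 3.27 CPM in MSL2-metafemales and 7.13 CPM in metafemales, against 11.9 CPM in diploid females, and was also within 2-fold once such transcripts were added. The median of chromosome 4 lay beside those of the other autosomes. The X-linked HP5 was the member that rose, at 40.5 CPM in MSL2-metafemales and 16.8 CPM in diploid females.

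**Figure D2:**
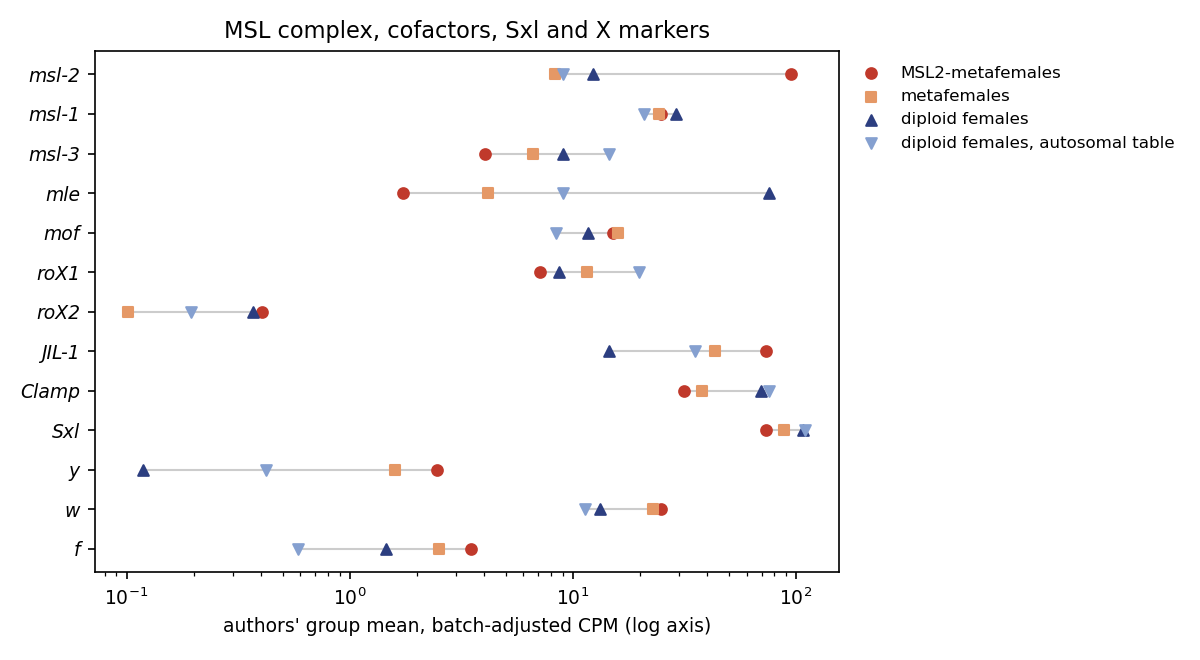
Group means of the MSL genes, cofactors, Sxl and X-linked marker genes on a log axis in batch-adjusted CPM, 1 point per group and gene, with no error available. MSL2-metafemales stand apart at msl-2 with 95.3 CPM, whereas msl-1 and mof lie close together in all groups and mle is highest in the diploid females of the same table at 75.4 CPM.

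The genes y, w and f mark the attached X. y, the yellow pigmentation gene at the tip of the X, had 2.45 CPM in MSL2-metafemales and 1.6 CPM in metafemales, against 0.119 CPM in diploid females. w, the white eye pigment transporter gene, had 24.8 CPM in MSL2-metafemales and 22.8 CPM in metafemales, against 13.2 CPM in diploid females. f, the forked bristle gene, had 3.5 CPM in MSL2-metafemales and 2.51 CPM in metafemales, against 1.45 CPM in diploid females. All 3 were highest in larvae whose attached X carries mutant alleles of them. A mutant allele may still be transcribed, so these levels do not count wild-type copies. The female label was checked with testis and Y-linked genes. Of 8 listed testis markers 7 had no mean in MSL2-metafemales, and neither had any of 5 Y-linked genes, of which the table names 2. Diploid females did have means for 7 of these testis markers and for both Y-linked genes, so this check did not set female larvae apart by the absence of a mean. The levels were low, however. betaTub85D, a testis tubulin gene, had 1.68 CPM in metafemales and 1.83 CPM in diploid females, against 450 CPM in diploid males, and the Y-linked kl-5 had 0.0189 CPM in metafemales and 0.208 CPM in diploid females, against 9.28 CPM in diploid males.

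In the sex determination pathway, 2 of 17 counted genes rose and 6 fell, with a median of -0.75 that became 0.13 over the diploid females of the autosomal table. The X-signal genes sc and sisA, transcription factor genes that switch on Sxl in the early embryo, had ratios of -2.40 and -1.71, but sisA turned to 1.49 over the diploid females of the autosomal table. Sxl itself had 73.4 CPM in MSL2-metafemales and 88.1 CPM in metafemales, against 107 CPM in diploid females, a difference below 2-fold. The courtship regulator gene fru had 31 CPM in MSL2-metafemales and 19.3 CPM in metafemales, against 11.5 CPM in diploid females. mxt, a translation regulator gene on the list, had 163 CPM in MSL2-metafemales and 84.2 CPM in metafemales, against 60.4 CPM in diploid females. These were the members that rose, and they kept the call against both diploid means, as did 3 of those that fell. The yolk protein genes, female-specific in adult fat body, were low in all groups apart from Yp2, at 0.971 CPM in MSL2-metafemales and 2.96 CPM in metafemales, against 42.4 CPM in diploid females but 3.4 CPM in those of the autosomal table.

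The salivary glue genes had the lowest median of any group of at least 5 counted genes, -3.34. Late larvae fill the salivary glands with Sgs proteins under control of ecdysone and expel them to fix the pupa to its support. Of 11 counted members, 7 fell and 3 rose, and all 10 kept their calls against both diploid means. Their summed level was 4580 CPM in MSL2-metafemales and 5889 CPM in metafemales, against 43873 CPM in diploid females. Sgs5 had 286 CPM in MSL2-metafemales and 1044 CPM in metafemales, against 15217 CPM in diploid females and 8604 CPM in those of the autosomal table, a log2 ratio of -5.73. Its neighbour Sgs5bis, listed as CG7587, was at -5.83, and Sgs1 was at -6.72 with 5.12 CPM in MSL2-metafemales and 18.7 CPM in metafemales, against 541 CPM in diploid females. Sgs8, Sgs7 and Sgs3, which lie together on 3L, had ratios of -6.11, -5.25 and -3.34.

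The 3 members that rose are the X-linked ng genes, which salivary glands express before the Sgs genes. ng2 had 421 CPM in MSL2-metafemales and 194 CPM in metafemales, against 29.9 CPM in diploid females, a log2 ratio of 3.81, while ng3 was at 2.39 and ng1 at 2.43. The X-linked Sgs4 had 824 CPM in MSL2-metafemales and 511 CPM in metafemales, against 1407 CPM in diploid females, below the 2-fold line. All 4 X-linked members thus stood above all 7 autosomal members. These lists were chosen with results of these larvae known.

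Ecdysone response genes were lower in the same larvae. Of 22 counted response genes, 11 fell and 1 rose, with a median of -0.97, and 5 and 1 kept their calls against both diploid means. The median was -0.32 over the diploid females of the autosomal table, where that of all counted genes was -0.10. Eip78C, a nuclear receptor gene induced by the hormone, had 0.66 CPM in MSL2-metafemales and 4.49 CPM in metafemales, against 69.1 CPM in diploid females. A further 2.08 CPM of Eip78C in MSL2-metafemales lay in transcripts without a diploid female mean. ImpE2, induced in imaginal discs, had 10.7 CPM in MSL2-metafemales and 4.14 CPM in metafemales, against 390 CPM in diploid females. The early puff gene br was at -1.66 and Eip74EF at -1.53, but at -0.42 and -0.35 over the diploid females of the autosomal table. ImpL3, the member that rose, encodes lactate dehydrogenase and is also counted with glycolysis. In hormone synthesis 4 of 10 genes fell, all against both diploid means, and 1 rose, with a median of -0.45 against -0.31 for all counted genes. The 10 include genes that do not themselves make ecdysone. Npc1a and Npc2a, sterol transport genes, were at -0.00 and -1.53, and Npc2a was among the 4 that fell. Cyp18a1, which inactivates it, was at 0.91, and Kr-h1, also counted with juvenile hormone, at -0.53. Among those that fell was spok, a P450 gene of the prothoracic gland, with 8.73 CPM in MSL2-metafemales and 11.6 CPM in metafemales, against 29.6 CPM in diploid females. The member that rose was shd, the P450 gene that makes the active hormone, with 107 CPM in MSL2-metafemales and 53.7 CPM in metafemales, against 51.1 CPM in diploid females. Over the diploid females of the autosomal table shd was at -0.57. The larvae were labelled only by the third instar. Whether they were of the same age within it as the diploid females was not tested.

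Juvenile hormone genes had no common direction. Of 11 counted members 4 rose and 4 fell, but against both diploid means 1 rose and none fell. gce, an X-linked receptor gene for the hormone, had 46.3 CPM in MSL2-metafemales and 31.3 CPM in metafemales, against 9.22 CPM in diploid females. Its paralog Met, also X-linked and within 2-fold of the diploid females of the autosomal table, had 5.34 CPM in MSL2-metafemales and 16.8 CPM in metafemales, against 15.6 CPM in diploid females.

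Fat body storage genes also divided by member. The X-linked Lsp1alpha, a larval serum protein subunit, had 9542 CPM in MSL2-metafemales and 6586 CPM in metafemales, against 1090 CPM in diploid females and 4418 CPM in those of the autosomal table. Lsp1beta had 32310 CPM in MSL2-metafemales and 29170 CPM in metafemales, against 7460 CPM in diploid females, yet 28545 CPM in those of the autosomal table, so that its ratio of 2.11 became 0.18. Lsp2, a serum protein gene that comes on late in the third instar, fell to 3599 CPM in MSL2-metafemales and 7189 CPM in metafemales, against 21048 and 21542 CPM in the 2 diploid means. Fbp1, the receptor gene for uptake of serum proteins, fell likewise, with 2910 CPM in MSL2-metafemales and 16155 CPM in diploid females. Of 7 members 3 rose and 2 fell, and 1 and 2 kept these calls against both diploid means. The 7 include PPO1, a prophenoloxidase gene and not a storage protein gene, also counted with the blood cell markers. It was among those that rose, at 2.96, and at 0.81 over the diploid females of the autosomal table.

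**Figure D3:**
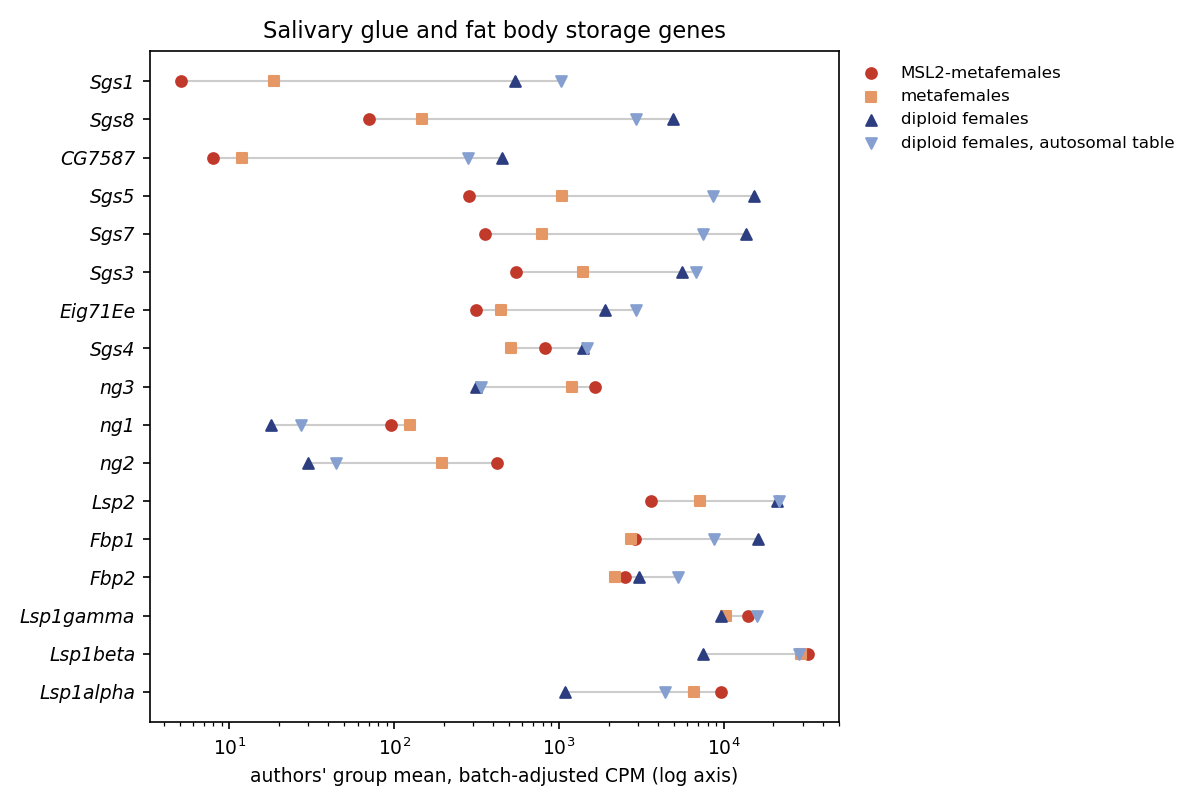
Group means of salivary glue and fat body storage genes on a log axis in batch-adjusted CPM, 1 point per group and gene. The autosomal Sgs genes of MSL2-metafemales and metafemales lie far left of both diploid female means, while the X-linked ng genes lie to the right of them and Lsp1beta separates only from the diploid females of the same table.

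Genes of innate immunity were lower over the diploid females of the same table, and mostly not over those of the autosomal table. Of 13 counted antimicrobial peptide genes 9 fell and 1 rose, with a median of -1.46, but 2 fell against both diploid means and the median became -0.07. AttA, an attacin gene, had 6.52 CPM in MSL2-metafemales and 7.77 CPM in metafemales, against 160 CPM in diploid females and 12.9 CPM in those of the autosomal table. DptA, a diptericin gene, had 27 CPM in MSL2-metafemales and 36.5 CPM in metafemales, against 215 CPM in diploid females and 26.3 CPM in those of the autosomal table. Drs, which encodes the antifungal peptide drosomycin, had 33.2 CPM in MSL2-metafemales and 112 CPM in metafemales, against 765 CPM in diploid females and 23.1 CPM in those of the autosomal table. The high value belonged to the diploid females of the same table in each case. Dro, the drosocin gene, was the member that rose, at 22.7 CPM in MSL2-metafemales and 6.9 CPM in metafemales, against 9.4 CPM in diploid females.

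The gut lysozymes, which digest bacteria in the larval diet, fell at 5 of 7 members, 4 of them against both diploid means. LysD had 1.31 CPM in MSL2-metafemales and 17.8 CPM in metafemales, against 1264 CPM in diploid females and 2958 CPM in those of the autosomal table, the lowest log2 ratio of all genes of at least 10 CPM at -9.91. LysX was at -4.29 and LysB at -1.65, with 272 CPM in MSL2-metafemales, 1562 CPM in metafemales and 857 CPM in diploid females. LysS was level, with 1048 CPM in MSL2-metafemales and 1052 CPM in diploid females. These genes are near copies of each other on 3L, and how reads were divided among them was not tested. Over the same diploid females, the median of the 7 genes was -1.66 in MSL2-metafemales and 0.53 in metafemales.

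Genes of midgut digestion were higher. Of 15 counted Jonah genes, which encode serine proteases of the midgut, 9 rose and none fell, 7 of them against both diploid means, with a median of 1.16. Together they had 105928 CPM in MSL2-metafemales and 49394 CPM in metafemales, against 25663 CPM in diploid females. One of the 9, Jon65Ai, had a further transcript with 1865 CPM in diploid females and no MSL2-metafemale mean. With such transcripts added its ratio of 2.63 became 0.91, and 8 of the 15 genes rose. Jon99Ciii carried the largest part, at 46655 CPM in MSL2-metafemales and 5438 CPM in metafemales, against 787 CPM in diploid females. The Jonah genes include near copies such as Jon99Cii, which had 5414 CPM in MSL2-metafemales and 6322 CPM in metafemales, against 4193 CPM in diploid females, and the split of reads between copies was not resolved. Jon65Aiv had 13610 CPM in MSL2-metafemales, 9483 CPM in metafemales and 3737 CPM in diploid females. Jon66Ci had 12783 CPM in MSL2-metafemales and 8693 CPM in metafemales, against 5829 CPM in diploid females.

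Trypsin genes rose at 4 of 11 members and fell at 1, and 1 of each kept its call against both diploid means. lambdaTry had 68.2 CPM in MSL2-metafemales and 33.6 CPM in metafemales, against 5.32 CPM in diploid females. gammaTry, the member that fell, had 102 CPM in MSL2-metafemales and 891 CPM in metafemales, against 475 CPM in diploid females. Of 8 maltase genes, which split dietary sugars, 4 rose, with Mal-A3 at 40.5 CPM in MSL2-metafemales, 62 CPM in metafemales and 6.05 CPM in diploid females. Only Mal-A8 kept its call against both diploid means. Over the diploid females of the autosomal table, Mal-A2 was at 0.53, Mal-A3 at -0.01 and Mal-A4 at 0.69.

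Muscle genes rose at 16 of 22 counted members and fell at 1, with a median of 1.35 against -0.31 for all counted genes. Against both diploid means 8 rose and none fell, and the median was 0.89 over the diploid females of the autosomal table. Act57B, a larval muscle actin gene, had 11105 CPM in MSL2-metafemales and 10684 CPM in metafemales, against 1876 CPM in diploid females and 6039 CPM in those of the autosomal table. Mhc, the myosin heavy chain gene, had 1189 CPM in MSL2-metafemales and 178 CPM in metafemales, against 51.4 CPM in diploid females. The X-linked troponin gene up had 2214 CPM in MSL2-metafemales and 2001 CPM in metafemales, against 660 CPM in diploid females. Act57B was within 2-fold of the diploid females of the autosomal table. Strn-Mlck, a myosin light chain kinase gene, was the member that fell, at 11.7 CPM in MSL2-metafemales and 24.9 CPM in diploid females.

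Enzymes of sugar breakdown were higher. All 16 glycolytic genes had a ratio above 0 over the diploid females of the same table, 12 of them rose, and 9 did so against both diploid means, with medians of 1.37 here and 1.41 over the diploid females of the autosomal table. Ald, the aldolase gene, had 1351 CPM in MSL2-metafemales and 1221 CPM in metafemales, against 306 CPM in diploid females. Eno, the enolase gene, had 1424 CPM in MSL2-metafemales and 1092 CPM in metafemales, against 505 CPM in diploid females. Gpo-1, a mitochondrial glycerophosphate oxidase gene, had 120 CPM in MSL2-metafemales and 136 CPM in metafemales, against 19.6 CPM in diploid females. Lactate dehydrogenase, encoded by ImpL3, had 370 CPM in MSL2-metafemales and 335 CPM in metafemales, against 113 CPM in diploid females. The lowest ratio of the list was 0.21, at Mdh1, cytosolic malate dehydrogenase. The direction of the group was thus the same with both diploid means.

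Respiratory chain and ATP synthase genes rose at 15 of 67 members and fell at none, with a median of 0.66. Of all counted genes, 14.1% rose and 22.9% fell. Against both diploid means 6 of the 67 rose, a share near the 8.52% of all genes. The median over the diploid females of the autosomal table was 0.22. blw, the ATP synthase alpha subunit gene, had 1154 CPM in MSL2-metafemales and 1156 CPM in metafemales, against 376 CPM in diploid females. SdhA, the succinate dehydrogenase flavoprotein gene, had 337 CPM in MSL2-metafemales and 251 CPM in metafemales, against 93 CPM in diploid females. The X-linked complex I subunit gene ND-ASHI had 439 CPM in MSL2-metafemales and 75.8 CPM in metafemales, against 23 CPM in diploid females. Proton pump subunits of the vacuolar ATPase rose at 8 of 20 members and fell at none. Vha55, a subunit gene of its cytosolic part, had 978 CPM in MSL2-metafemales and 508 CPM in metafemales, against 277 CPM in diploid females. Against both diploid means 3 of the 8 kept the call, and Vha55 did not.

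In fat synthesis 4 of 15 genes rose and 3 fell, 2 and 2 of them against both diploid means. FASN1, fatty acid synthase, had 778 CPM in MSL2-metafemales and 1093 CPM in metafemales, against 93.2 CPM in diploid females and 240 CPM in those of the autosomal table. ATPCL, which supplies the acetyl-CoA for it, had 53.5 CPM in MSL2-metafemales and 72.8 CPM in metafemales, against 150 CPM in diploid females. It turned to 1.16 over the diploid females of the autosomal table. Of 22 insulin, TOR and Myc pathway genes, 3 rose and 3 fell, 1 and 1 of them against both. The shares of all counted genes were 14.1% and 22.9%, or 8.52% and 12.8% against both. Myc itself had 23.2 CPM in MSL2-metafemales, 22.5 CPM in metafemales and 23.7 CPM in diploid females.

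Proteasome genes were lower together. Of 34 counted subunits, 14 fell and 1 rose, with medians of -0.93 here and -0.80 over the diploid females of the autosomal table, and 7 fell and 1 rose against both. Rpn13, a ubiquitin receptor of the regulatory particle, had 54.2 CPM in MSL2-metafemales and 83.3 CPM in metafemales, against 264 CPM in diploid females. Rpt2, an ATPase of its base, had 40 CPM in MSL2-metafemales and 245 CPM in metafemales, against 373 CPM in diploid females. Only Rpt2 of this pair was also past 2-fold below the diploid females of the autosomal table. Prosbeta7, a core subunit, was the exception, at 848 CPM in MSL2-metafemales and 59.1 CPM in metafemales, against 130 CPM in diploid females. Over the same diploid females it was thus past 2-fold higher in MSL2-metafemales and past 2-fold lower in metafemales.

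Cytosolic ribosomal protein genes lay mostly within 2-fold. Of 86 counted genes, 2 rose and 6 fell, 2 and 5 of them against both diploid means, and their median was -0.41. The members that rose, RpL17 and RpL7A, are X-linked, and RpL17 had 1607 CPM in MSL2-metafemales and 362 CPM in metafemales, against 287 CPM in diploid females. RpL27, on 3R, had 298 CPM in MSL2-metafemales and 624 CPM in metafemales, against 1738 CPM in diploid females. Mitochondrial ribosomal proteins rose at 0 and fell at 4 of 70 genes, 3 of them against both, with a median of -0.28, and none of 17 tRNA synthetase genes was past 2-fold.

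Cell division genes were lower, 15 of 37 past 2-fold and none higher, with medians of -0.90 here and -0.82 over the diploid females of the autosomal table. Against both, 11 fell. CycA, the mitotic cyclin gene, had 21.6 CPM in MSL2-metafemales and 21.4 CPM in metafemales, against 70.4 CPM in diploid females. Cdk1, the mitotic kinase gene, had 17.1 CPM in MSL2-metafemales and 13.8 CPM in metafemales, against 49.9 CPM in diploid females. E2f1, the S-phase transcription factor gene, had 29.3 CPM in MSL2-metafemales and 124 CPM in diploid females but 38.3 CPM in those of the autosomal table. All 6 X-linked members, among them Myb and CycD, lay between -0.24 and 0.28. Over the diploid females of the autosomal table their median was 0.98, and they ran from 0.01 at Myb to 2.49 at Rbf.

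Notch target genes of the Enhancer of split cluster on 3R, which restrain neural fate, fell at 10 of 11 members, 8 of them against both diploid means, with a median of -1.85. E(spl)malpha-BFM had 10.9 CPM in MSL2-metafemales and 7.96 CPM in metafemales, against 52.8 CPM in diploid females and 29 CPM in those of the autosomal table. E(spl)m2-BFM had 5.37 CPM in MSL2-metafemales and 5.19 CPM in metafemales, against 30.4 CPM in diploid females and 14.1 CPM in those of the autosomal table. Low levels were thus shared by both triplo-X groups.

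Stress genes fell at 12 of 27 members and rose at 1, 7 and 1 against both diploid means. Dronc, the initiator caspase gene, had 21.6 CPM in MSL2-metafemales and 36.4 CPM in metafemales, against 105 CPM in diploid females. Ilp8, a relaxin-like peptide gene that damaged discs use to delay pupation, was the member that rose, at 4.96 CPM in MSL2-metafemales and 11.3 CPM in metafemales, against 1.37 CPM in diploid females.

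Small heat shock genes gave no stable direction. Of 7 members 4 fell, 2 of them against both diploid means, with a median of -1.07 that turned to 0.29 over the diploid females of the autosomal table. Hsp23 had 3183 CPM in MSL2-metafemales but 56.6 CPM in metafemales, against 6259 CPM in diploid females and 1740 CPM in those of the autosomal table. Hsp27 had 506 CPM in MSL2-metafemales and 89.7 CPM in metafemales, against 1567 CPM in diploid females and 98.8 CPM in those of the autosomal table. Among 22 larger chaperones 7 fell and 2 rose, 1 and 2 against both. Hsc70-5, the mitochondrial Hsp70 gene, had 1086 CPM in MSL2-metafemales and 67.9 CPM in metafemales, against 365 CPM in diploid females.

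Cuticle genes went in both directions, 20 of 49 counted members rising and 11 falling, with 10 and 8 against both diploid means. Lcp65Ag3, a larval cuticle protein gene, had 35.4 CPM in MSL2-metafemales and 10.7 CPM in metafemales, against 0.266 CPM in diploid females. The X-linked TwdlX had 173 CPM in MSL2-metafemales and 55.4 CPM in metafemales, against 5.13 CPM in diploid females. Lcp1 had 465 CPM in MSL2-metafemales and 889 CPM in metafemales, against 3386 CPM in diploid females. Cpr49Ac had 252 CPM in MSL2-metafemales and 329 CPM in metafemales, against 2274 CPM in diploid females. Chitin and peritrophic matrix genes rose at 13 of 33 members and fell at 2, 9 and 1 against both. obst-A, an X-linked gene for a chitin-binding protein, had 340 CPM in MSL2-metafemales and 114 CPM in metafemales, against 63.2 CPM in diploid females. Cht7, a chitinase gene, had 167 CPM in MSL2-metafemales and 75 CPM in metafemales, against 17 CPM in diploid females.

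Detoxification families differed from each other. Cytochrome P450 genes rose at 21 of 62 members and fell at 8, with 13 and 5 against both diploid means. The 62 include Cyp1, an X-linked cyclophilin gene that is not a P450, at a log2 ratio of 0.19. Cyp6a2, which oxidises xenobiotics, had 72 CPM in MSL2-metafemales and 8.86 CPM in metafemales, against 0.742 CPM in diploid females. Cyp6d2 had 0.693 CPM in MSL2-metafemales and 8.6 CPM in metafemales, against 11.1 CPM in diploid females. UDP-glycosyltransferase genes rose at 8 of 11 members with a median of 1.23, but 3 kept the call and the median was 0.09 over the diploid females of the autosomal table. Glutathione S-transferases rose at 4 and fell at 6 of 31, 2 and 4 of them against both. Beside these stand 14.1% and 22.9% of all counted genes, or 8.52% and 12.8% against both. Odorant-binding protein genes rose at 4 and fell at 3 of 18, 3 and 3 of them against both. Obp99b had 1097 CPM in MSL2-metafemales and 1079 CPM in metafemales, against 8080 CPM in diploid females.

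**Figure D4:**
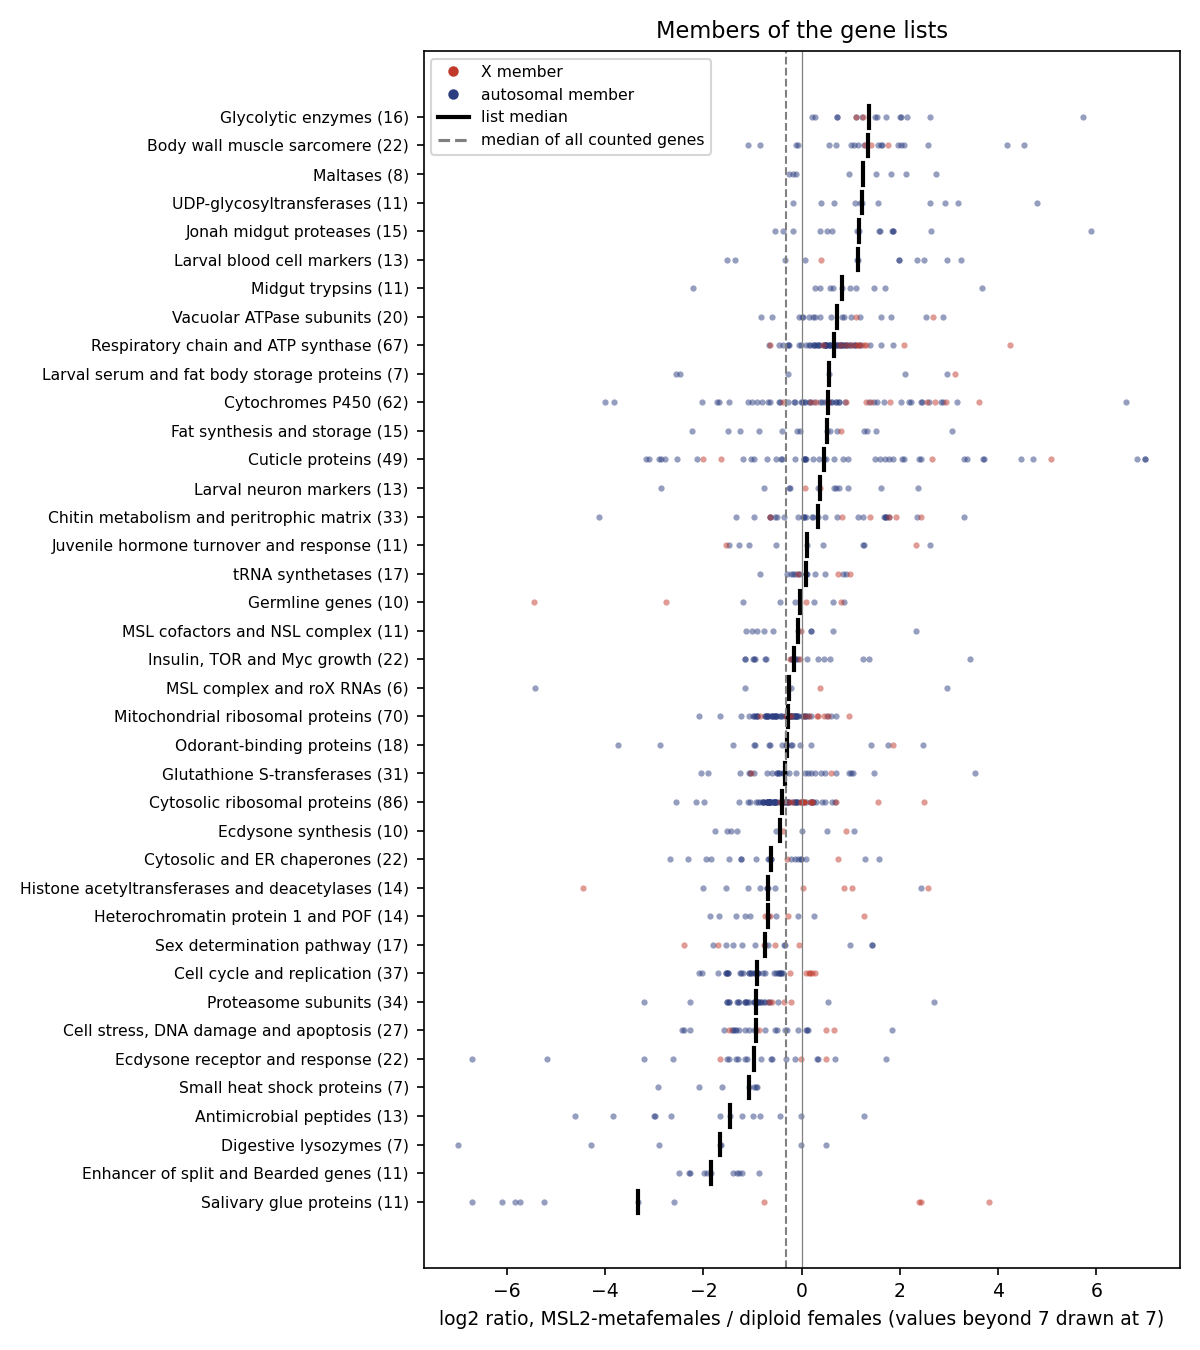
Log2 ratios of the counted members of each gene group of at least 5 genes, with the number counted in parentheses, X-linked members in red and autosomal members in blue. Black bars are group medians and the dashed line is the median of all counted genes at -0.31, and the groups run from glycolysis at 1.37 at the top to salivary glue at -3.34 at the bottom.

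Markers of single tissues were summed as a check on tissue content. The salivary gland, muscle and fat body markers are themselves members of the glue, muscle and storage groups above, so their sums are not separate evidence. The 6 salivary gland markers, all Sgs genes, summed to 2092 CPM in MSL2-metafemales and 3918 CPM in metafemales, against 41161 CPM in diploid females. The 7 body wall muscle markers summed to 25407 CPM in MSL2-metafemales and 23129 CPM in metafemales, against 7066 CPM in diploid females. All 7 rose. The 6 fat body markers summed to 64854 CPM in MSL2-metafemales and 58176 CPM in metafemales, against 58356 CPM in diploid females. Diploid females of the autosomal table had 28289 CPM of salivary gland, 13687 CPM of muscle and 84265 CPM of fat body markers. The fat body sum of MSL2-metafemales thus lay between the 2 diploid sums. Among 13 blood cell markers 8 rose and 2 fell, 4 and 1 of them against both diploid means, with sums of 2659 CPM in MSL2-metafemales and 2056 CPM in metafemales, against 817 CPM in diploid females. Diploid females of the autosomal table had a sum of 1130 CPM. PPO2, a crystal cell prophenoloxidase gene, had 497 CPM in MSL2-metafemales and 354 CPM in metafemales, against 52.7 CPM in diploid females. Hml, the hemolectin gene of plasmatocytes, had 264 CPM in MSL2-metafemales and 275 CPM in metafemales, against 121 CPM in diploid females. Some listed members, such as the collagen genes Col4a1 and vkg, are also expressed in fat body. Of 13 neuron markers 2 rose and 1 fell, 1 and 1 of them against both, with a median of 0.37. They summed to 260 CPM in MSL2-metafemales, 254 CPM in metafemales and 375 CPM in diploid females, but 271 CPM in those of the autosomal table. The member that fell, ple, carried the lower sum, and without it, a choice made after its value was seen, the sums were 232 CPM in MSL2-metafemales, 189 CPM in metafemales and 170 CPM in diploid females. Those of the autosomal table then had 140 CPM. elav, the pan-neuronal RNA-binding protein gene, had 70.5 CPM in MSL2-metafemales and 65.6 CPM in metafemales, against 54.4 CPM in diploid females. The part of tissue composition in any gene group was not tested.

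Within a functional group, X-linked members mostly stood above autosomal ones. Among 17 groups with at least 3 counted members of each kind, the X-linked median was higher in 15, and in 14 over the diploid females of the autosomal table. For cytosolic ribosomal proteins the 15 X-linked genes had a median of 0.04 and the 71 autosomal genes -0.54. Mitochondrial ribosomal proteins had 0.15 over 11 genes and -0.41 over 59, and respiratory chain genes 1.12 over 12 and 0.57 over 55. Cytochrome P450 genes had 1.36 over 12 and 0.39 over 50, and 7 of the 12 X-linked members rose. These 12 include the cyclophilin gene Cyp1, at 0.19. In cell division the X-linked median was 0.16 and the autosomal one -0.97. The exceptions were germline genes, where the yolk protein genes gave an X-linked median of -1.34, and the sex determination pathway, with -0.77 on the X and -0.72 on autosomes. The groups partly share genes and are few, so the count is a description of these lists.

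**Figure D5:**
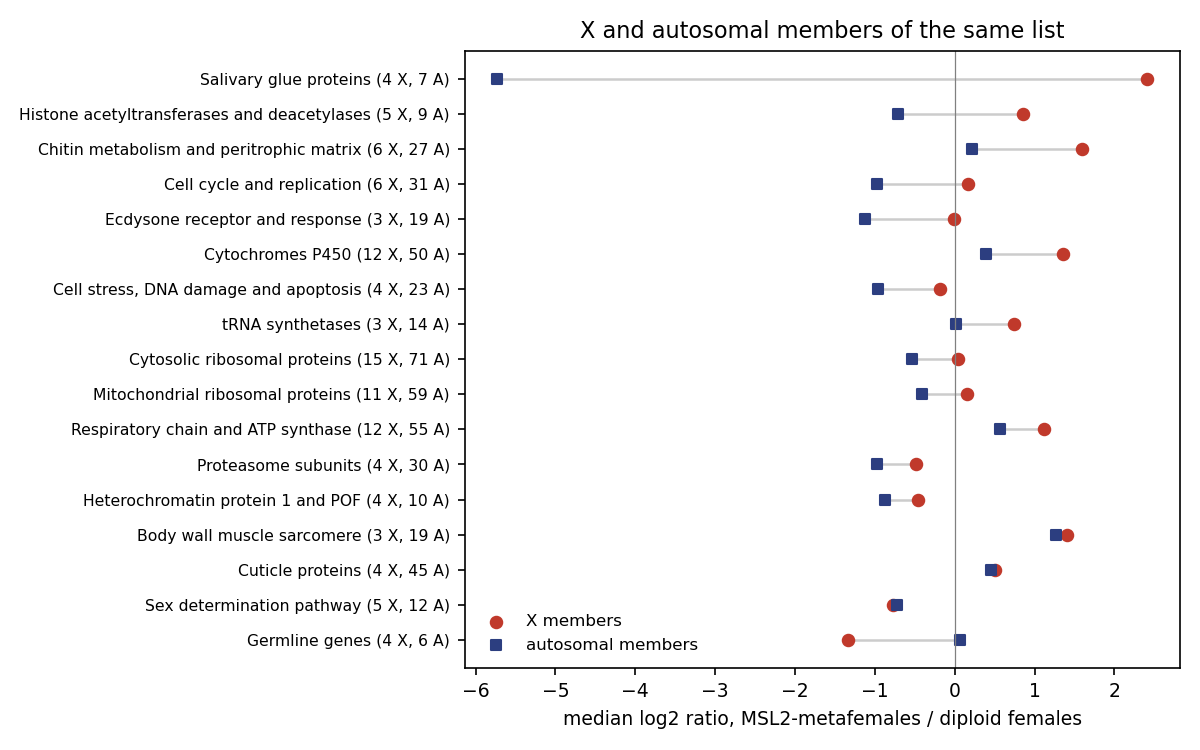
Median log2 ratio of X-linked and autosomal members of the 17 gene groups with at least 3 of each, with the numbers of X and autosomal (A) genes in parentheses. The X-linked median lies to the right in 15 groups, by 0.06 for cuticle proteins up to 8.14 for salivary glue.

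Among genes averaging at least 10 CPM, the 15 that fell most had ratios of -9.91 to -5.51, and 14 of them were also at least 2-fold below the diploid females of the autosomal table. Besides glue, lysozyme and ecdysone genes they included NimC2, a Nimrod family gene of phagocytosis, with 4.02 CPM in MSL2-metafemales and 4.16 CPM in metafemales, against 354 CPM in diploid females. CG8888 had 3.68 CPM in MSL2-metafemales and 2.61 CPM in metafemales, against 568 CPM in diploid females. The pigmentation gene e, on 3R, encodes a synthase that joins beta-alanine to dopamine, and it had 0.328 CPM in MSL2-metafemales and 7.51 CPM in metafemales, against 63.2 CPM in diploid females. CG9981, at -7.99, fell at 1 transcript only, because another of its transcripts had 81.1 CPM in MSL2-metafemales and no diploid female mean. CG30463, at -5.51, had 1.98 CPM in MSL2-metafemales and 90.6 CPM in diploid females. It also had 71 CPM of transcripts with an MSL2-metafemale mean only, and was within 2-fold once these were added. IM23, an immune-induced peptide gene, turned to 1.90 over the diploid females of the autosomal table.

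The 15 that rose most had ratios of 6.65 to 8.77, all past 2-fold over either diploid mean, but 10 of them had a diploid female mean below 1 CPM. These ratios left out transcripts with a diploid female mean only. Such transcripts had 143 CPM at CG43085, 29.4 CPM at CG9319 and 21.3 CPM at CG11873. MSL2-metafemales had 774, 31.8 and 94.9 CPM of these genes, so the rise of CG9319 held for 1 transcript and not for the gene. CG11350 had 537 CPM in MSL2-metafemales and 449 CPM in metafemales, against 1.23 CPM in diploid females and 88.3 CPM in those of the autosomal table. CG13315 had 37759 CPM in MSL2-metafemales alone, against 143 CPM in metafemales, 138 CPM in diploid females and 280 CPM in those of the autosomal table. CG3819 had 5234 CPM in MSL2-metafemales, 99.7 CPM in metafemales and 42 CPM in diploid females. CG5167 had 252 CPM in MSL2-metafemales and 0.787 CPM in metafemales, against 1.31 CPM in diploid females. Of 929 genes at least 2-fold higher at 10 CPM or more, 34 stood at least 10 times above the metafemale mean too. In 31 of these a single transcript held at least 90% of the level. A gene with only 1 transcript in the comparison reaches 100% by definition, and the share over all genes was not counted. A single assembled transcript may change its share of a locus while the locus does not, and this was not tested.

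On the X, the 10 genes that rose most were all past 2-fold over either diploid mean, with ratios of 4.77 to 8.70. Left out of these ratios were transcripts with a diploid female mean only, at 48.3 CPM for CG14215 and 13 CPM for Usp30. CG14215, at 5.20 with 90.6 CPM in MSL2-metafemales and 2.47 CPM in diploid females, was within 2-fold once they were added. hiw, which encodes a ubiquitin ligase of synapse growth, had 183 CPM in MSL2-metafemales and 13.9 CPM in metafemales, against 3.08 CPM in diploid females. Usp30, a deubiquitinase gene, had 436 CPM in MSL2-metafemales and 22.6 CPM in metafemales, against 12.4 CPM in diploid females. CG32564 had 44.2 CPM in MSL2-metafemales and 44.5 CPM in metafemales, against 1.62 CPM in diploid females. Of the 10 X-linked genes that fell most, 5 kept the call. mgl, a lipoprotein receptor gene, had 8.96 CPM in MSL2-metafemales and 20.3 CPM in metafemales, against 87.7 CPM in diploid females and 34.9 CPM in those of the autosomal table. Klp3A, a kinesin gene, had 4.07 CPM in MSL2-metafemales and 8.33 CPM in metafemales, against 50.4 CPM in diploid females, but 0.0119 CPM in the diploid females of the autosomal table, so that its direction depended wholly on the diploid mean. Whether both of its 2 transcripts had a mean there was not checked.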

How the data were processed

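RNA of whole larvae was sequenced, mapped to Drosophila melanogaster Release 6 with HISAT2 2.1.0 and quantified with StringTie 1.2.2 by the authors. The authors scaled counts to CPM, adjusted them for sequencing batch with ComBat (sva 3.36.0) and then dropped whatever was not positive. Replicates were averaged, and these adjusted means, a score rather than a count, were deposited. The sources used here do not state which libraries entered each mean or whether genotype was kept in the adjustment. The depth behind a mean is unknown, so no interval can be given. Columns of the authors' own group ratios were not used. Columns of single libraries were not in these tables.

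Transcripts with both means were summed by gene name and chromosome, and the log2 ratio of the means was taken with no pseudocount. Counts used genes averaging at least 1 CPM. No test was made, since each group has 1 mean. Of 13861 gene names, 11110 were RefSeq symbols, 2383 synonyms and 368 were not found, and 2 transcripts had no name. Genes were named as members of the 48 gene lists, as the 15 largest rises and falls at 10 CPM or more, as the 10 of each on the X, or as genes of the crosses and of the MSL complex. Members and lists were chosen with earlier results of these data known. No nucleotide sequences are shown, as none were used here. Alternatives were 3 scalings, pseudocounts of 0.1, 0.5 and 1 CPM, filters, transcripts instead of genes and transcripts with 1 mean added. The diploid female mean of the autosomal table was added after seeing the data. Calculations were tested on simulated data. Python 3.11.15, pandas 2.3.3, numpy 2.4.6 and matplotlib 3.10.9 were used.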

Additional observations from a re-analysis of the deposited data

Results flagged for a closer look

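Some transcripts had a mean in MSL2-metafemales and none in diploid females, and so entered no ratio. There were 974 of these, with a median of 0.883 CPM, and 3136 with the reverse pattern, with a median of 0.283 CPM. Those of at least 100 CPM in MSL2-metafemales were signal that the ratios did not use. A transcript of the Jonah protease gene Jon65Aii had 1067 CPM in MSL2-metafemales and 259 CPM in metafemales. A transcript of Pdi, the protein disulfide isomerase gene, had 965 CPM in MSL2-metafemales and 1.7 CPM in metafemales, while another Pdi transcript had 715 CPM in MSL2-metafemales and 1295 CPM in metafemales, against 1130 CPM in diploid females. A transcript of CG8498 had 490 CPM in MSL2-metafemales and 12.5 CPM in metafemales, and diploid females had 182 CPM of another CG8498 transcript, which had no MSL2-metafemale mean. A transcript of bun, a growth regulator gene, had 258 CPM in MSL2-metafemales and 25.5 CPM in metafemales. One of the cuticle gene Cpr47Eg had 119 CPM in MSL2-metafemales and 30.8 CPM in metafemales. These were 5 transcripts, and 8 of at least 100 CPM in diploid females had no MSL2-metafemale mean. The highest of the 8, of the Jonah gene Jon65Ai, had 1865 CPM in diploid females and 29.7 CPM in metafemales. Adding such transcripts made the Jon65Ai ratio 0.91 in place of 2.63. No diploid female value accompanies the 5, because means not above 0 were removed, so no fold is given.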

How the results depend on the processing

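No paired analysis was possible because each group has 1 mean and no value per library, and no replicate could be left out. The cause of the moves below was not tested. The X median of 0.10 was -0.09 with equal totals, 0.39 with the trimmed mean, 0.05 with a pseudocount of 1 CPM, 0.17 at 10 CPM or more and 0.59 with the diploid female mean of the autosomal table. The autosomal median of -0.39 was -0.58 with equal totals, -0.42 with totals without the 100 highest transcripts, -0.10 with the trimmed mean, -0.37, -0.30 and -0.25 with pseudocounts of 0.1, 0.5 and 1 CPM, -0.36 at 10 CPM or more and -0.27 with the other diploid mean. Their difference of 0.49 was 0.36 and 0.30 with pseudocounts of 0.5 and 1 CPM and 0.86 with the other diploid mean. By transcript, 2751 were higher and 4191 lower. At 10 CPM or more 1292 genes were lower. Against both diploid means 799 were higher and 1197 lower. Among gene groups of at least 5 counted genes, 11 had a median past 2-fold, and 4 with the other diploid mean. Of 44 groups of any size 15 did, and 8 of these stayed so with the other diploid mean, where the drosomycin family turned to 0.52 and the small heat shock genes to 0.29. Of 134 named genes past 2-fold, 107 stayed so in the same direction with the other diploid mean. Those that turned sign there were 28SrR-Psi:CR45862 (2.44), ATPCL (1.16), CG14406 (1.25), DptA (0.04), Drs (0.52), Hsp27 (2.36), IM23 (1.90), Klp3A (8.41), Mal-A3 (-0.01), Ptpmeg2 (0.55), pre-rR-Psi:CR45856 (0.05), shd (-0.57) and sisA (1.49). Adding transcripts with 1 mean turned CG9981 to 1.18 and left 127 of the 134 past 2-fold.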

Other observations

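These 2 sets were looked at after their values were seen. Genes of dopamine synthesis and cuticle tanning were low together. ple, the tyrosine hydroxylase gene that makes the precursor, had 28.1 CPM in MSL2-metafemales and 65.2 CPM in metafemales, against 205 CPM in diploid females and 131 CPM in those of the autosomal table. Ddc, the dopa decarboxylase gene, had 32.7 CPM in MSL2-metafemales and 9.52 CPM in metafemales, against 414 CPM in diploid females and 101 CPM in those of the autosomal table. b, on 2L, whose product supplies beta-alanine, had 2.61 CPM in MSL2-metafemales and 11.7 CPM in metafemales, against 116 CPM in diploid females and 15 CPM in those of the autosomal table. With e, all 4 were past 2-fold lower against both diploid means.

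Bomanin genes, short immune peptides that the Toll pathway induces, were matched by RefSeq symbol. The minimum of 1 CPM was not applied to them. Of 11 with both means, 8 were at least 2-fold lower and 2 at least 2-fold higher in MSL2-metafemales than in diploid females of the same table. Among the 8 is CG18107, below that minimum, at 0.0461 CPM in MSL2-metafemales and 1.11 CPM in diploid females. Against the diploid females of the autosomal table, 6 of 10 were at least 2-fold higher and 2 lower. IM1, now BomS1, had 3.95 CPM in MSL2-metafemales and 16 CPM in metafemales, against 119 CPM in diploid females and 0.429 CPM in those of the autosomal table.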
